A study of Mus musculus with 24 samples.

Results

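The change in the mouse heart between the third and the sixth hour of reperfusion was measured in 6 of the 24 RNA-sequencing libraries of a time series. Members were chosen by the treatment label alone. The 3 libraries of 6 h came from C57BL/6 hearts kept without blood flow for 45 min (ischemia) and then given 6 h of restored flow (reperfusion), and the 3 libraries of 3 h from hearts given the same ischemia and 3 h of flow. C57BL/6 is an inbred laboratory strain, and both groups carried the ischemia, so that only the hours of flow differ by label. The other 18 libraries came from sham surgery, ischemia alone and 0.5, 1, 1.5 and 12 h of reperfusion, again with 3 libraries a group. The labels name neither the age and sex of the mice nor the part of the heart, and do not say whether each library is from its own animal. The p-values thus measure the spread between these libraries, which may be technical.

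When flow returns to a heart after ischemia, cells switch on immediate early genes, whose transcripts appear without new protein and are short-lived. A later set of genes follows, which includes chemokines that draw neutrophils and then monocytes from the blood, growth factors, and genes that cardiomyocytes use when the wall is stretched or injured. ATF3 and FANCD2, the proteins that the title of the series names, are a stress-induced transcription factor and a protein of DNA crosslink repair.

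The 6 h libraries held 16122319 to 16957736 uniquely mapped reads in genes and the 3 h libraries 15765679 to 16169048, of which the mitochondrial genome gave 19.0% to 21.3% at 6 h and 20.5% to 25.5% at 3 h. Expression is given as CPM, the reads of a gene scaled to the total of its library times a scaling factor (TMM). That factor ran from 0.858 to 1.16 over the 24 libraries. CPM allows comparing samples and not genes of different length. A gene was called where the adjusted p of edgeR's quasi-likelihood test was under 0.05. On the first principal component of all 24 libraries the 6 h libraries lay at 57.6, 85.6 and 68.6 and the 3 h libraries at 25.2, 1.23 and 19.2, so that replicate 2 of each time stood farthest from the other time. Ventricular cardiomyocyte markers summed to 81406 to 90487 CPM at 6 h and 87818 to 118601 CPM at 3 h, which is what a heart sample should hold. Of 8 lung markers 6 were at 0 reads in both groups, and the 1 tested reached at most 0.650 CPM at 6 h and 2.67 CPM at 3 h. The skeletal muscle markers Myh1, Myh4 and Tnnc2 were at 0 reads in both groups. The 5 of 10 skeletal muscle markers with enough reads to be tested summed to 418 to 446 CPM at 6 h and 302 to 314 CPM at 3 h.

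Of 15128 genes tested, 2227 were higher (14.7%) and 1996 lower (13.2%) at 6 h than at 3 h, which is 27.9% called in all. By at least 2-fold, 709 were higher and 753 lower. The fit that held only these 6 libraries called 1528 higher and 1237 lower. Across 40 lists of genes with a shared role, those with the greatest share of members higher were ribosome biogenesis, CC chemokines and their receptors, and fetal and wall stress genes. The greatest shares of lower members were in collagen genes, immediate early genes and cardiac ion channels. Over all tested genes the median log2 fold change was -0.01, and the medians of lists given below are on the same scale. All counts of list members given below are to be read beside the shares of all tested genes, 14.7% higher and 13.2% lower. In the lists with 0 members called in a direction, at most 1 member had an unadjusted p under 0.05 in that direction and DESeq2 and limma-voom called 0, except for the endothelial markers, with 3 at that level and 1 called lower by limma-voom.

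**Figure D1:**
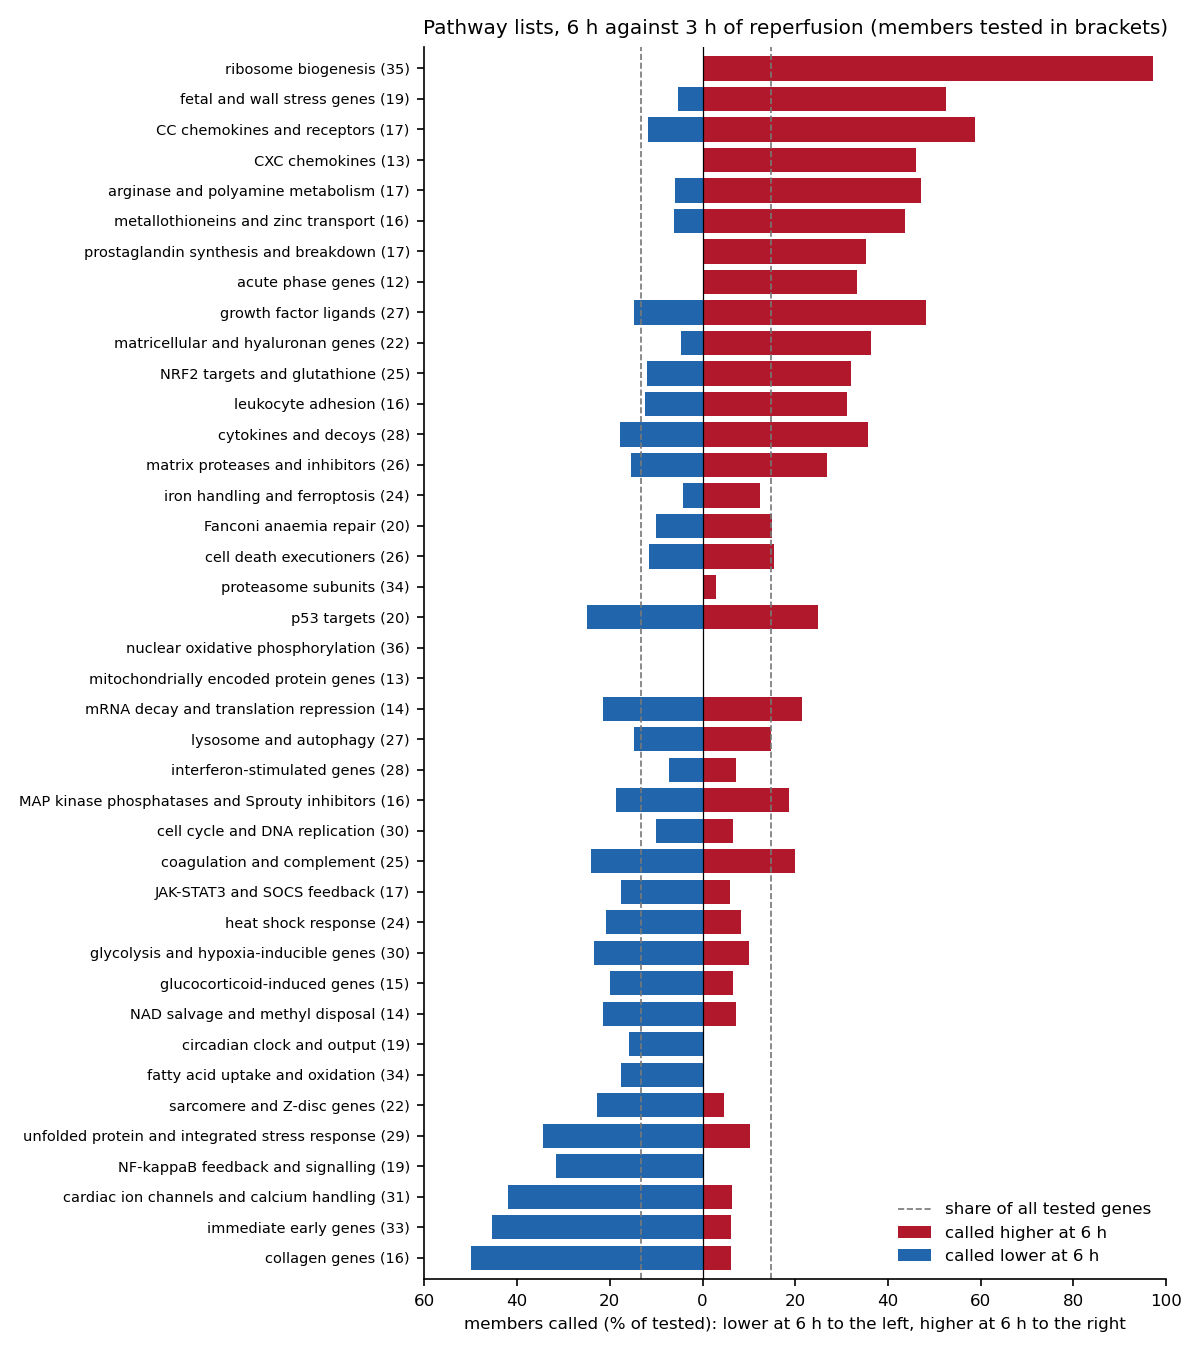
Share of the tested members of each of 40 pathway lists called higher at 6 h (red, to the right) and called lower at 6 h (blue, to the left) than at 3 h, with the number of members tested in brackets. Dashed lines mark the share of all tested genes, 14.7% higher and 13.2% lower. The ribosome biogenesis bar reaches 34 of 35 members, and the oxidative phosphorylation bars are empty.

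The 15 largest rises held genes of myeloid cells, chemokines and genes of muscle and matrix. In whole tissue, more or fewer cells of a type and more or less RNA in each of them cannot be told apart. Nmrk2, the muscle kinase that turns nicotinamide riboside into a precursor of NAD (chr10:81198170-81202051, minus strand, GRCm38), had 65.8, 193 and 309.6 CPM at 6 h, against 6.56, 9.98 and 10.4 CPM at 3 h (log2 fold change 4.40 ± 0.42, adjusted p = 2.51e-07). The groups did not overlap, and its lowest 6 h library stood at more than 6 times its highest 3 h library. Cxcl5, a chemokine for neutrophils, had 89.7, 169.6 and 88.3 CPM at 6 h, against 19.8, 6.36 and 13.2 CPM at 3 h (log2 fold change 3.13 ± 0.30, adjusted p = 3.02e-07). Syt12, a member of the synaptotagmin family of membrane-trafficking proteins, had 42.6, 74.6 and 33.9 CPM at 6 h, against 9.88, 3.25 and 4.49 CPM at 3 h (log2 fold change 3.08 ± 0.32, adjusted p = 5.46e-07; 3.69 without 3 h replicate 1). For both genes all 6 h libraries lay above all 3 h libraries.

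Chil3, a chitinase-like protein of myeloid cells, had 4.91, 13.2 and 18.1 CPM at 6 h, against 0.0602, 0 and 0.13004 CPM at 3 h. With 590 reads over the 6 h libraries and 3 reads over the 3 h libraries, the ratio of CPM was 181, with an exact 95% interval from counting of 61.7 to 882 (adjusted p = 1.33e-07, and a log2 fold change of 8.20 in place of 7.35 without 3 h replicate 3). Ccr2, the receptor that leads monocytes out of the bone marrow, rose by 3.75 ± 0.36 on the log2 scale, and Adam12, a metalloprotease, by 3.08 ± 0.32. The immunoglobulin-superfamily adhesion protein Igsf11 rose by 3.30 ± 0.43, the Rab GTPase Rab44 by 3.15 ± 0.46 and the Schlafen family member Slfn1 by 2.87 ± 0.43. Adjusted p of these 5 genes lay between 3.02e-07 and 3.62e-05, and in each of them the 2 groups did not overlap.

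Some of the largest rises rested on 1 library. Saa3, an acute phase protein, had 8.34, 55.97 and 6.85 CPM at 6 h, against 1.75, 0 and 0.6502 CPM at 3 h (log2 fold change 4.81 ± 0.75, adjusted p = 6.70e-05), and its change was 3.18 without 6 h replicate 2 and 6.08 without 3 h replicate 1. Arg1, which splits arginine, had 1.12, 13.6 and 1.43 CPM at 6 h, against 0.662, 0.07395 and 0.06502 CPM at 3 h (log2 fold change 4.21 ± 0.90, adjusted p = 0.00142), with 2.15 without 6 h replicate 2 and 6.13 without 3 h replicate 1. In both genes 6 h replicate 2 was by far the highest library, and both were still called without it. The fold change of the neutrophil chemokine Cxcl3 was 2.75 without 6 h replicate 2 (3.76 ± 0.52 with it), that of Slfn4, another Schlafen gene, 2.96 (3.61 ± 0.43), and that of Ccl12, a mouse ligand of CCR2, 2.83 without 6 h replicate 3 (3.42 ± 0.48). Mmp8, the neutrophil collagenase, rose by 3.04 ± 0.46, and by 3.73 without 3 h replicate 3.

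**Figure D2:**
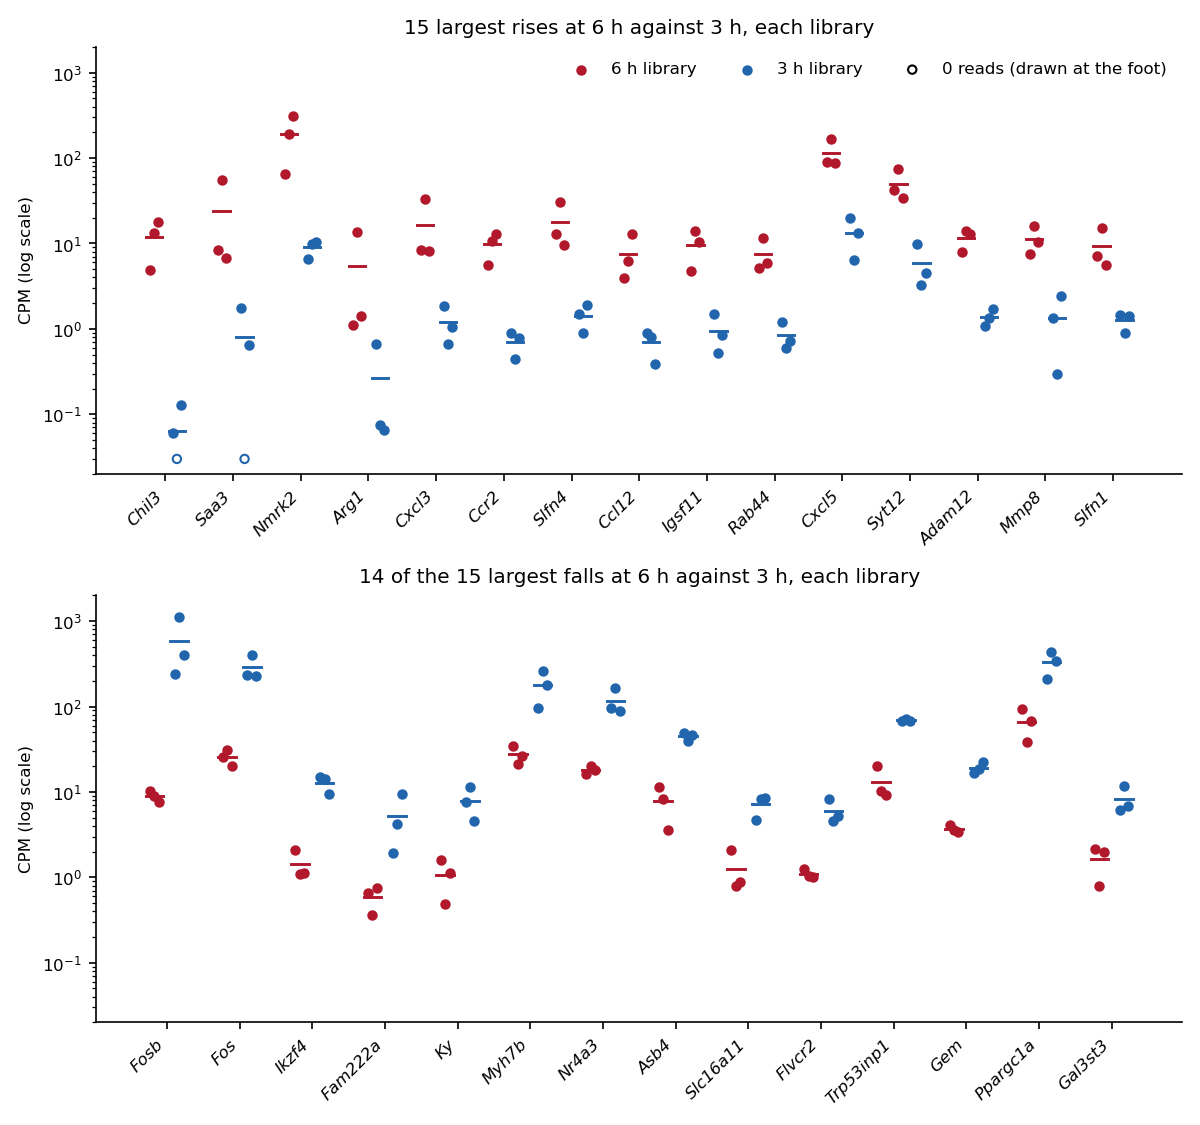
CPM on a log axis of the 15 genes with the largest rises (top) and 14 of the 15 with the largest falls (bottom) among called genes of at least 5 CPM, with 6 h libraries in red on the left of each pair, 3 h libraries in blue on the right, and a bar at each mean; open circles stand for 0 reads. Only genes whose 6 h and 3 h libraries do not overlap could be drawn, so the lack of overlap follows from the choice. Arg1, Saa3 and Cxcl3 each have 1 high library at 6 h.

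The largest falls were led by immediate early genes. Fosb, which pairs with JUN proteins in the AP-1 complex (chr7:19302696-19310051, minus strand, GRCm38), had 10.2, 9.02 and 7.66 CPM at 6 h, against 238, 1105 and 404 CPM at 3 h (log2 fold change -6.02 ± 0.69, adjusted p = 1.48e-06; -5.15 without 3 h replicate 2). Fos, its close relative, had 25.7, 30.7 and 19.9 CPM at 6 h, against 233, 402 and 226 CPM at 3 h (log2 fold change -3.49 ± 0.45, adjusted p = 5.80e-06). All 3 h libraries lay far above all 6 h libraries in both genes, with 3 h replicate 2 the highest. The orphan nuclear receptor Nr4a3 had 16.4, 19.9 and 17.9 CPM at 6 h, against 95.9, 163 and 89.2 CPM at 3 h (log2 fold change -2.68 ± 0.42, adjusted p = 5.39e-05).

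Atf3, the stress-induced factor of the ATF/CREB family that the series is about (chr1:191170296-191218039, minus strand, GRCm38), had 61.3, 145 and 80.2 CPM at 6 h, against 357, 591 and 444 CPM at 3 h (log2 fold change -2.28 ± 0.48, adjusted p = 0.00119). Its 6 h libraries did not overlap with its 3 h libraries, and 6 h replicate 2 was the highest of its time. Nr4a1, a nuclear receptor of the family of Nr4a3, fell by 2.24 on the log2 scale with an SE of 0.49 (-2.87 without 6 h replicate 1). The zinc finger factor Klf4 had a log2 fold change of -1.83 ± 0.27 and the AP-1 subunit Jund of -1.40 ± 0.30, and both were lower at 6 h in every library. For Jun the fold change was -1.22 ± 0.34 (adjusted p = 0.0103), and its call was lost on leaving out 3 h replicate 2 (adjusted p = 0.0626) or 6 h replicate 3 (adjusted p = 0.0666).

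Of 33 tested immediate early genes, 15 were lower, 2 higher and 16 not called, with a median log2 fold change of -0.66. With no filter on low counts 24 were lower. In 19 of the 33 all 6 h libraries lay below all 3 h libraries, against 19.5% of all tested genes. Without 1 library the number of lower members was between 10 and 14, and that of higher members was 1 without 6 h replicate 2. Ier3, an early gene that counters cell death, had 82.8, 162 and 143 CPM at 6 h, against 62.8, 55.5 and 64.2 CPM at 3 h (log2 fold change 1.09 ± 0.25, adjusted p = 0.002399). Myc had 47.5, 93.2 and 63.03 CPM at 6 h, against 63.7, 81.6 and 68.3 CPM at 3 h (log2 fold change -0.07 ± 0.29, adjusted p = 0.889), and its groups overlapped. Klf6, Btg2 and Fosl2 had fold changes of -0.12 ± 0.24, -0.61 ± 0.40 and -0.60 ± 0.31 and were not called, although each stood above 130 CPM at both times. Fosl1, an AP-1 subunit, was called higher (0.87 ± 0.24) and lost the call on leaving out 6 h replicate 2 (adjusted p = 0.111).

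The promoters of 4 of the early genes that fell are shown because a cyclic AMP response element (CRE), the site that ATF/CREB factors bind, is a known feature of this gene class. Each line gives the 120 bases before the transcript start in the RefSeq promoter table (GRCm38.p6), 5′ to 3′ in the direction of the gene. Capitals mark TGACG on either strand (CGTCA where it lies on the other). TGACG is the core of the CRE and only a part of it, and the whole element was not searched for. The stretches lie at chr7:19310046-19310165, minus strand (Fosb), chr12:85473770-85473889, plus strand (Fos), chr1:191183334-191183453, minus strand (Atf3) and chr15:101266726-101266845, plus strand (Nr4a1). In the GENCODE annotation those of Atf3 and Nr4a1 lie within the gene, after the start of a longer transcript. Of the Atf3 stretch 7 bases lie in an annotated exon. Whether its marked letters are among these bases was not determined.

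Fosb: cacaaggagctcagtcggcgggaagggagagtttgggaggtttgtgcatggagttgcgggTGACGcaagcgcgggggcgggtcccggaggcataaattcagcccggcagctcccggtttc

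Fos: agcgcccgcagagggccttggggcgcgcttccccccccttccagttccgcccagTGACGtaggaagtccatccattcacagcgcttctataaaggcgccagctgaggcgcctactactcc

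Atf3: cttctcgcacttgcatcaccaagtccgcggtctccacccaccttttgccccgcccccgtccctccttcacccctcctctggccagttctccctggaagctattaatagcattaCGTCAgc

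Nr4a1: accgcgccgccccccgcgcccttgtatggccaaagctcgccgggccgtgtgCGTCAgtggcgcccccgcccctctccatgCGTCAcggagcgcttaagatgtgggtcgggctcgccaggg

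These letters lie 60 to 56 bases before the start in Fosb, 66 to 62 in Fos and 7 to 3 in Atf3, and Nr4a1 holds them at 69 to 65 and at 40 to 36. In windows of 250 bases before the start, searched on both strands, 25 of 38 promoters of 28 matched early genes held TGACG (65.8%), against 17.8% of all 32841 promoters of the table. A match is a description of the letters, and shows neither a whole CRE nor that a factor was bound.

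Also among the 15 largest falls, Ppargc1a, the coactivator that drives genes of mitochondria and fat burning (chr5:51454250-51567726, minus strand, GRCm38), had 93.6, 38.5 and 68.1 CPM at 6 h, against 211, 439 and 343 CPM at 3 h (log2 fold change -2.31 ± 0.25, adjusted p = 8.48e-07). Myh7b, a slow-type myosin heavy chain gene, had 34.6, 21.5 and 26.5 CPM at 6 h, against 95.03, 261 and 177 CPM at 3 h (log2 fold change -2.69 ± 0.32, adjusted p = 2.75e-06). Trp53inp1, a p53-induced stress protein, had 20.05, 10.2 and 9.22 CPM at 6 h, against 68.2, 71.7 and 68.1 CPM at 3 h (log2 fold change -2.39 ± 0.29, adjusted p = 2.39e-06), and its 3 h libraries differed little among themselves. In each of the 3 genes all 6 h libraries lay below all 3 h libraries.

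The zinc finger factor Ikzf4 fell by 3.15 on the log2 scale with an SE of 0.44. Gem, a GTPase that restrains calcium channels, had a fold change of -2.37 ± 0.29, the muscle peptidase Ky -2.86 ± 0.34, and Asb4, which recruits proteins to a ubiquitin ligase, -2.52 ± 0.35. The transporters Slc16a11 and Flvcr2 had -2.51 ± 0.55 and -2.47 ± 0.26, and the sulfotransferase Gal3st3 -2.30 ± 0.27. Adjusted p of these 7 genes was at most 0.00142. Fam222a had -3.12 ± 0.48 with and -2.35 without 3 h replicate 3, its highest library.

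NF-kappaB is the transcription factor that inflammatory signals release in the cell, and several of its targets feed back on it. Of 19 tested genes of this loop, 6 were lower and 0 higher at 6 h (1 higher without 3 h replicate 1), and 13 were not called. Rel, a subunit of NF-kappaB, had 27.7, 21.6 and 27.1 CPM at 6 h, against 86.2, 88.8 and 64.7 CPM at 3 h (log2 fold change -1.65 ± 0.15, adjusted p = 1.55e-07). Nfkbia, which holds the factor in the cytoplasm, had 82.5, 70.1 and 39.5 CPM at 6 h, against 124, 119 and 110.1 CPM at 3 h (log2 fold change -0.88 ± 0.18, adjusted p = 0.000915). For both genes all 6 h libraries lay below all 3 h libraries. The ubiquitin ligase Birc3 had a fold change of -1.02 ± 0.17 and Tnip3, an inhibitor of the pathway, of -1.98 ± 0.47 (-2.73 without 6 h replicate 1). Sod2, mitochondrial superoxide dismutase, averaged 476 ± 19.2 CPM at 6 h and 531 ± 71.7 CPM at 3 h, and the subunit Rela 79.6 ± 9.49 CPM at 6 h and 73.8 ± 2.86 CPM at 3 h. Both were not called, and their groups overlapped.

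Chemokines of the CXC family, many of which draw neutrophils, were not all called. Of 16 members and receptors 13 were tested, and 6 were higher and 0 lower (1 lower without 6 h replicate 1, with no filter or in the fit of these 6 libraries alone). Cxcl3 had 8.28, 33.2 and 8.096 CPM at 6 h, against 1.87, 0.666 and 1.04 CPM at 3 h (adjusted p = 2.02e-05). Cxcl1 had 38.1, 67.2 and 34.01 CPM at 6 h, against 42.9, 55.8 and 44.9 CPM at 3 h (log2 fold change -0.04 ± 0.31, adjusted p = 0.937), and Cxcl2 had 10.1, 21.03 and 7.91 CPM at 6 h, against 15.3, 13.02 and 17.4 CPM at 3 h (log2 fold change -0.23 ± 0.36, adjusted p = 0.669). For Cxcl1 and Cxcl2, ligands of the same receptor as Cxcl3, the 2 groups overlapped. Cxcr2, that receptor, had 8.69, 15.2 and 7.598 CPM at 6 h, against 1.32, 0.222 and 2.86 CPM at 3 h (log2 fold change 2.81 ± 0.45, adjusted p = 6.19e-05; 3.69 without 3 h replicate 3).

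The promoters of these 3 neighbouring ligands on chromosome 5 are shown because they share a site and were not called alike. Capitals mark 2 overlapping matches, 1 on each strand, to the NF-kappaB consensus of 10 bases, in the 120 bases before the RefSeq start (GRCm38.p6). The stretches lie at chr5:90785981-90786100, plus strand (Cxcl3), chr5:90891125-90891244, plus strand (Cxcl1) and chr5:90903779-90903898, plus strand (Cxcl2).

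Cxcl3: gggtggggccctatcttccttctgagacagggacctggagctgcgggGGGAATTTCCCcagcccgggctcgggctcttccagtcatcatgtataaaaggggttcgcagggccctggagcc

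Cxcl1: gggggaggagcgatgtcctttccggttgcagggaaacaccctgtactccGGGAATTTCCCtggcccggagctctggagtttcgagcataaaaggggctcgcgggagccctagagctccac

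Cxcl2: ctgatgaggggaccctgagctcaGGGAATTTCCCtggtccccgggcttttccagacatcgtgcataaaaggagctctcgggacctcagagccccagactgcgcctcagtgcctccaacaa

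The marked letters GGGAATTTCCC are the same in all 3, and begin 73, 71 and 97 bases before the RefSeq start. In the GENCODE annotation 28 bases of the Cxcl2 stretch lie in an exon, with 4 for Cxcl1 and 0 for Cxcl3. The distances thus depend on the annotation used. Of 13 CXC promoters 4 held the consensus in 250 bases (30.8%), as did 11 of 22 promoters of 16 matched NF-kappaB loop genes (50%), against 3.90% of all promoters. Whether the change of Cxcl3 differed from that of Cxcl1 or Cxcl2 was not tested.

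CC chemokines and their receptors, which draw monocytes, had 17 of 20 members tested, 10 of them higher and 2 lower, with a median of 1.39. Ccl2, the main ligand of CCR2, had 62.5, 122 and 102 CPM at 6 h, against 27.5, 19.8 and 23.5 CPM at 3 h (log2 fold change 2.01 ± 0.38, adjusted p = 0.000383), and Ccl7, another ligand of that receptor, had 24.6, 54.1 and 57.2 CPM at 6 h, against 10.5, 7.91 and 7.22 CPM at 3 h (log2 fold change 2.40 ± 0.37, adjusted p = 4.75e-05). In both genes the 6 h libraries lay above the 3 h libraries, with 6 h replicate 1 the lowest of its time. The receptor Ccr1 rose by 1.54 ± 0.31. Both members that were lower are scavenger receptors, which take up chemokines without passing on a signal. Ackr3 had a fold change of -1.26 ± 0.22 and Ackr4 of -1.88 ± 0.47.

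Among cytokines, their receptors and decoys, 10 of 28 were higher and 5 lower, and the count of lower members was 1 without 6 h replicate 2 or 6 h replicate 3, 3 without any 1 of the 3 h libraries 2 with library totals in place of scaling factors and 1 in the fit of these 6 libraries alone. Il1b, interleukin 1 beta, had 8.04, 21.03 and 25.2 CPM at 6 h, against 2.23, 2.66 and 4.62 CPM at 3 h (log2 fold change 2.51 ± 0.39, adjusted p = 4.90e-05), and Il1rn, its antagonist, rose as well (log2 fold change 1.99 ± 0.44, adjusted p = 0.001504). Il33, an alarm cytokine of stromal cells, had 56.8, 57.9 and 41.8 CPM at 6 h, against 22.04, 5.25 and 5.72 CPM at 3 h (log2 fold change 2.23 ± 0.35, adjusted p = 5.22e-05; 3.25 without 3 h replicate 1). Clcf1, a ligand of the interleukin 6 family, rose by 1.96 ± 0.23, and Tnfrsf12a, the receptor of the cytokine TWEAK, by 1.32 ± 0.29. Il6 had 11.8, 20.2 and 9.84 CPM at 6 h, against 12.5, 17.97 and 23.5 CPM at 3 h (adjusted p = 0.516), and the groups overlapped. Csf2, which acts on granulocytes and macrophages, rose by 2.72 ± 0.53 at low levels, with 2.07, 1.83 and 0.996 CPM at 6 h, against 0.301, 0.222 and 0.195 CPM at 3 h.

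Most tested markers of neutrophils and of recruited monocytes were higher at 6 h, while 0 markers of T and NK cells, B cells or erythroid cells were. Of 20 neutrophil markers 14 had enough reads to be tested, and of these 11 were higher and 0 lower, with a median of 1.78. S100a9, a calcium-binding protein that fills neutrophils, had 17.03, 45.1 and 27.2 CPM at 6 h, against 4.88, 2.88 and 7.41 CPM at 3 h (log2 fold change 2.55 ± 0.43, adjusted p = 0.000113), and its partner S100a8 rose by 2.35 ± 0.45 (1.75 without 6 h replicate 2). Csf3r, the receptor for granulocyte colony-stimulating factor, had 13.4, 25.97 and 14.2 CPM at 6 h, against 4.697, 3.11 and 7.15 CPM at 3 h (log2 fold change 1.83 ± 0.30, adjusted p = 9.42e-05), and Trem1, an activating receptor, rose by 2.67 ± 0.45. The summed level of the 14 markers was 186 to 345 CPM at 6 h and 60.3 to 122 CPM at 3 h, without overlap. The part of these cells in the higher chemokine, cytokine and protease genes above and below was not tested.

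Of 14 markers of recruited monocytes 10 were higher and 0 lower, with a median of 1.63. Ms4a4c had 1.597, 2.99 and 2.49 CPM at 6 h, against 0.422, 0.07395 and 0.06502 CPM at 3 h (log2 fold change 3.54 ± 0.61, adjusted p = 0.000168; 4.94 without 3 h replicate 1). Ifitm6 rose by 3.52 ± 0.61 and Plac8 by 2.77 ± 0.57, all 3 at under 5 CPM in every library. F13a1, a subunit of clotting factor XIII that monocytes and macrophages carry, had 73.1, 99.7 and 90.9 CPM at 6 h, against 32.3, 38.5 and 39.1 CPM at 3 h (log2 fold change 1.26 ± 0.16, adjusted p = 3.98e-06). The summed level of the list, most of it from Thbs1, Lyz2 and Fn1, which heart cells also express, was 1145 to 1576 CPM at 6 h and 966 to 1242 CPM at 3 h, and the groups overlapped. Itgam, the integrin of myeloid cells, had 39.4, 84.6 and 45.03 CPM at 6 h, against 10.7, 9.54 and 10.99 CPM at 3 h (log2 fold change 2.44 ± 0.22, adjusted p = 1.70e-07), and the leukocyte integrin Itgb2 rose by 1.01 ± 0.22.

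**Figure D3:**
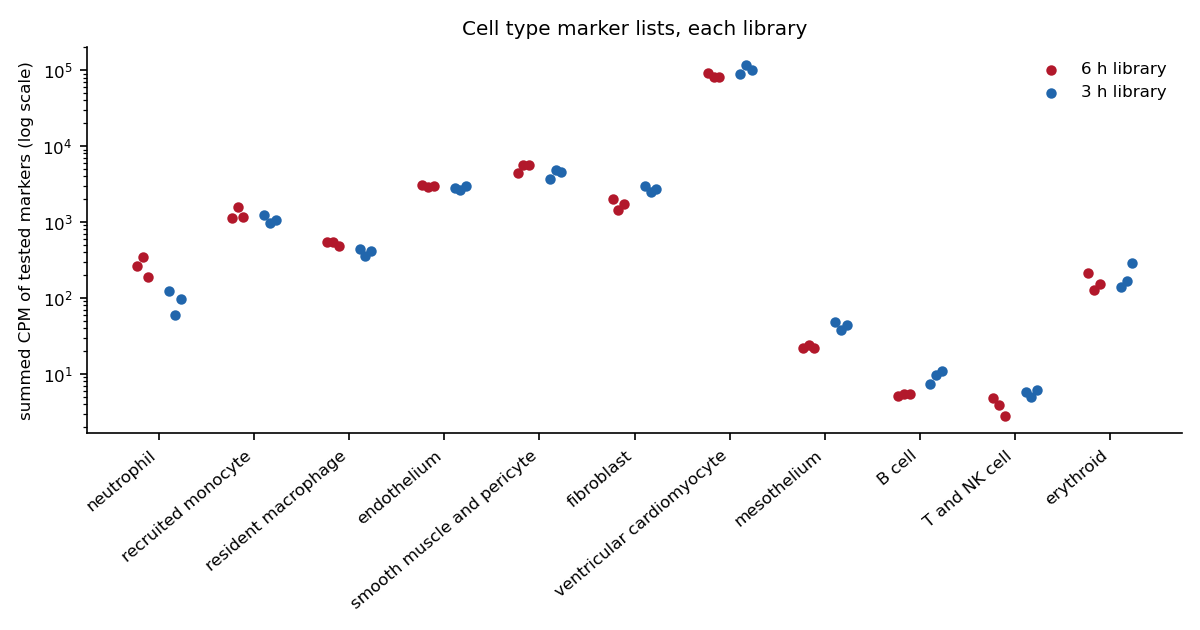
Summed CPM of the tested markers of 11 cell types, on a log axis, in each 6 h library (red, left) and each 3 h library (blue, right). Neutrophil and resident macrophage markers lie higher at 6 h without overlap, and fibroblast, mesothelium, B cell, and T and NK cell markers lie lower. F13a1 counts in both the recruited monocyte and the resident macrophage sums, and the latter overlap without it.

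Of 16 markers of the macrophages that live in the heart 5 were higher, 1 lower and 10 not called, with a median of 0.15. Their summed level was 488 to 553 CPM at 6 h and 354 to 443 CPM at 3 h, without overlap. F13a1, given above, is in this list as well as in that of recruited monocytes, and counts in both sums. With its values taken off, the sums of the 2 groups overlap. Mrc1, the mannose receptor, had 89.2, 80.5 and 65.02 CPM at 6 h, against 44.7, 32.9 and 40.7 CPM at 3 h (log2 fold change 0.99 ± 0.15, adjusted p = 4.40e-05), and Cd68 rose by 0.79 ± 0.20. Csf1r, the receptor macrophages need to live, averaged 42.9 ± 3.41 CPM at 6 h and 45.3 ± 1.34 CPM at 3 h, and C1qa, a complement subunit they make, 49.6 ± 5.41 CPM at 6 h and 47.1 ± 8.95 CPM at 3 h. Neither was called. The number called higher was 3 in the fit of these 6 libraries alone, and that lower was 0 without 6 h replicate 2. Markers of T and NK cells had 0 of 10 called in either direction by this test, and B cell markers had 2 of 8 lower (1 without 3 h replicate 3, 6 h replicate 1 or 6 h replicate 2 and in the fit of these 6 libraries alone). Erythroid markers, with 0 of 6 called, summed to 129 to 213 CPM at 6 h and 140 to 286 CPM at 3 h, which overlapped.

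Ribosome biogenesis, the making of ribosomal RNA and its assembly with proteins in the nucleolus, was the list with the greatest share of members higher. All 35 tested members had higher values in every 6 h library than in any 3 h library, against 20.1% of all tested genes, and 34 were called higher. The fold changes ran between 0.43 and 1.64 with a median of 0.92, and between 33 and 34 members were called without any 1 of the 6 libraries. Nop2, which methylates ribosomal RNA, had 62.9, 78.7 and 72.2 CPM at 6 h, against 30.95, 14.7 and 22.8 CPM at 3 h (log2 fold change 1.64 ± 0.17, adjusted p = 6.25e-07). Heatr1, a factor of the small subunit precursor, had 48.3, 69.02 and 56.3 CPM at 6 h, against 30.4, 11.2 and 15.6 CPM at 3 h (log2 fold change 1.59 ± 0.24, adjusted p = 3.62e-05), and Rrp12, an export factor of the subunits, had 133, 189.6 and 162 CPM at 6 h, against 59.1, 52.7 and 70.7 CPM at 3 h (log2 fold change 1.41 ± 0.18, adjusted p = 4.80e-06). In all 3 genes 6 h replicate 2 was the highest library, and 3 h replicate 2 was the lowest.

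Noc3l and Utp20, both assembly factors, rose by 1.59 ± 0.21 and 1.38 ± 0.16. Of the subunits of RNA polymerase I, which transcribes ribosomal RNA genes, Polr1b had 33.9, 44.9 and 42.2 CPM at 6 h, against 20.7, 13.6 and 16.1 CPM at 3 h (log2 fold change 1.26 ± 0.14, adjusted p = 1.35e-06) and Polr1c 11.2, 11.8 and 14.7 CPM at 6 h, against 9.76, 6.73 and 10.99 CPM at 3 h (log2 fold change 0.45 ± 0.17, adjusted p = 0.0538). Polr1c was the 1 member not called. The call of Polr1a, its largest subunit, was lost on leaving out 3 h replicate 3 (adjusted p = 0.0705), 6 h replicate 1 (adjusted p = 0.0545) or 6 h replicate 2 (adjusted p = 0.0806). The abundant nucleolar proteins Ncl and Npm1 rose by 0.60 ± 0.13 and 0.64 ± 0.15, and Nop56, a core protein of the box C/D particles that guide methylation, by 1.22 ± 0.16. The median level of the 35 genes was 42.2 CPM at 6 h and 22.8 CPM at 3 h.

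**Figure D4:**
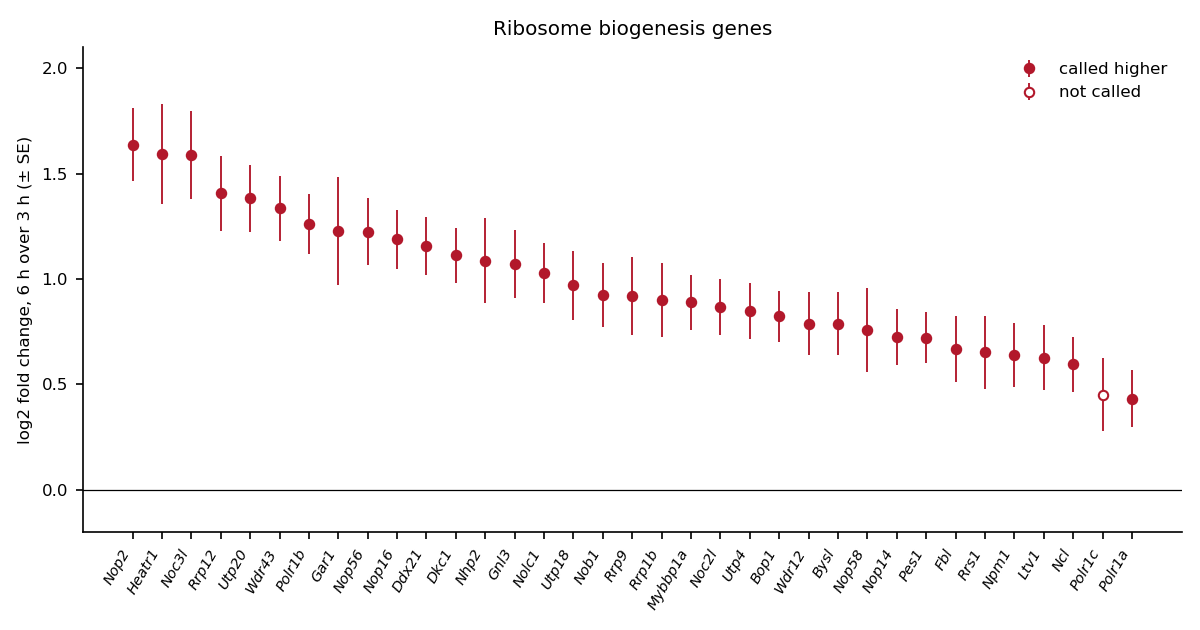
Log2 fold change of 6 h over 3 h with its SE for the 35 ribosome biogenesis genes, in falling order, with called genes as filled points. All points lie above 0, between 1.64 for Nop2 and 0.43 for Polr1a, and Polr1c is the open point.

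The E-box CACGTG, the site of the MYC family, is shown in the 2 promoters of this list that hold it, because MYC is known as a driver of these genes. It is in capitals in the 120 bases before the RefSeq start (GRCm38.p6), at chr6:125131763-125131882, plus strand (Nop2) and chr11:93885767-93885886, minus strand (Utp18).

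Nop2: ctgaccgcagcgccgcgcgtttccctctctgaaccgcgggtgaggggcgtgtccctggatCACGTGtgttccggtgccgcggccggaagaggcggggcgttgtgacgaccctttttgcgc

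Utp18: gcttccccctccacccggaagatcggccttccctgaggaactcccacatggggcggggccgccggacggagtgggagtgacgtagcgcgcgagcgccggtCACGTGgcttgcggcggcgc

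It lies 60 to 55 bases before the start in Nop2 and 20 to 15 in Utp18, whose fold change was 0.97 ± 0.16. Of 34 promoters of 30 matched genes of the list 2 held it in 250 bases (5.88%), against 6.02% of all promoters. Myc itself, given above, was not called.

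Polyamines, which dividing and growing cells make from arginine, are linked to this work of growth. Of 17 genes of arginine and polyamine metabolism 8 were higher and 1 lower, and 5 were higher and 2 lower without 6 h replicate 2. Srm, spermidine synthase, had 42.8, 51.4 and 36.5 CPM at 6 h, against 17.6, 8.87 and 13.8 CPM at 3 h (log2 fold change 1.69 ± 0.20, adjusted p = 2.83e-06). Amd1, which supplies its other substrate, had 133, 180.3 and 138 CPM at 6 h, against 84.4, 68.6 and 68.1 CPM at 3 h (log2 fold change 1.03 ± 0.16, adjusted p = 4.83e-05), and Slc7a2, an arginine transporter, rose by 1.95 ± 0.36. All 6 h libraries of these 3 genes lay above all 3 h libraries. Nos3, the nitric oxide synthase of endothelium, had 42.7, 53.4 and 41.98 CPM at 6 h, against 74.8, 93.6 and 93.7 CPM at 3 h and was lower (log2 fold change -0.92 ± 0.20, adjusted p = 0.00153).

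Fetal and wall stress genes, which cardiomyocytes raise under stretch or injury, had 10 of 19 members higher and 1 lower (0 lower without 3 h replicate 2), with a median of 0.89. Xirp2, an actin-binding protein of the intercalated disc, had 978, 2879.5 and 2104 CPM at 6 h, against 345, 570.3 and 561 CPM at 3 h (log2 fold change 2.01 ± 0.37, adjusted p = 0.0002895). Fhl1, a LIM protein of the stretch response, had 682, 1482 and 1235 CPM at 6 h, against 211, 286 and 374 CPM at 3 h (log2 fold change 1.96 ± 0.25, adjusted p = 5.02e-06), and Flnc, the filamin of muscle, had 3833, 10552 and 5872 CPM at 6 h, against 1294, 2101 and 2527 CPM at 3 h (log2 fold change 1.77 ± 0.39, adjusted p = 0.00143). In all 3 genes the highest library was 6 h replicate 2, and the lowest 6 h library still lay above the highest 3 h library. Ankrd1, a stretch-sensitive protein of the sarcomere, rose by 1.71 ± 0.22 and Nppb, the B-type natriuretic peptide, by 1.34 ± 0.37. Tnc, a matrix protein of injured heart, had 32.5, 59.6 and 34.1 CPM at 6 h, against 12.2, 3.402 and 6.83 CPM at 3 h (log2 fold change 2.48 ± 0.33, adjusted p = 7.16e-06).

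Of 27 tested growth factor ligands 13 were higher and 4 lower. Hbegf, a ligand of the EGF receptor, had 415, 741 and 477 CPM at 6 h, against 183, 129 and 139.6 CPM at 3 h (log2 fold change 1.85 ± 0.32, adjusted p = 0.000143), and Ereg, another such ligand, rose by 2.15 ± 0.42. Tgfb2 had 47.8, 86.9 and 99.2 CPM at 6 h, against 18.2, 18.7 and 20.5 CPM at 3 h (log2 fold change 2.02 ± 0.20, adjusted p = 3.59e-07), while Tgfb3, of the same family, was lower (log2 fold change -0.78 ± 0.17, adjusted p = 0.00144). Angpt1, the ligand that steadies vessels through the receptor TIE2, had 9.11, 3.902 and 6.23 CPM at 6 h, against 22.5, 24.9 and 16.1 CPM at 3 h (log2 fold change -1.72 ± 0.27, adjusted p = 5.18e-05), and Angpt2, which competes with it, had 16.3, 26.3 and 17.3 CPM at 6 h, against 8.73, 4.14 and 5.07 CPM at 3 h (log2 fold change 1.73 ± 0.26, adjusted p = 4.36e-05). Angpt1 was lower and Angpt2 higher, neither with any overlap between times. Inhba, the activin A subunit, rose by 2.36 ± 0.48, and Nrg1, which acts on cardiomyocytes from the endothelium, by 3.21 ± 0.81 from under 0.3 CPM (4.23 without 3 h replicate 2).

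Among proteases of the matrix and their inhibitors 7 of 26 were higher and 4 lower. Plat, an activator of plasminogen, had 44.7, 43.8 and 34.3 CPM at 6 h, against 62.03, 55.2 and 75.8 CPM at 3 h (log2 fold change -0.65 ± 0.16, adjusted p = 0.00405). Timp1, an inhibitor of metalloproteases, had 48.5, 70.7 and 78.04 CPM at 6 h, against 15.7, 5.92 and 9.17 CPM at 3 h (log2 fold change 2.67 ± 0.27, adjusted p = 4.56e-07), while Timp2 and Mmp2 were lower (-0.91 ± 0.14 and -1.06 ± 0.18). Adam8, a metalloprotease of leukocytes, rose by 2.48 ± 0.32. None of these 5 genes had libraries of the 2 times that overlapped.

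Of 16 collagen genes 8 fell and 1 rose (0 without 3 h replicate 2), with a median of -0.42. Col3a1 had 169, 69.6 and 126 CPM at 6 h, against 444, 186 and 337 CPM at 3 h (log2 fold change -1.41 ± 0.33, adjusted p = 0.00267). Col1a1 had 85.6, 41.8 and 65.5 CPM at 6 h, against 153, 111 and 159 CPM at 3 h (log2 fold change -1.13 ± 0.28, adjusted p = 0.00402), and Col5a1 had 45.3, 23.1 and 36.7 CPM at 6 h, against 103, 71.4 and 92.3 CPM at 3 h (log2 fold change -1.34 ± 0.25, adjusted p = 0.000317). Within each time replicate 2 was the lowest library of all 3 genes, and the times still did not overlap. Of the basement membrane chains, Col4a1 averaged 1691 ± 34.5 CPM at 6 h and 1418 ± 248 CPM at 3 h and Col4a2 1212 ± 57.5 CPM at 6 h and 962 ± 153 CPM at 3 h, and neither was called. Of 12 fibroblast markers 8 were lower, among them the 3 collagens Col1a1, Col1a2 and Col3a1, and 2 were higher, with a median of -0.58. The number higher was 1 without 3 h replicate 2, 3 h replicate 3, 6 h replicate 1 or 6 h replicate 3 and with library totals alone, and 0 in the fit of these 6 libraries alone. The proteoglycan Lum had 25.4, 18.8 and 21.3 CPM at 6 h, against 56.2, 40.3 and 38.2 CPM at 3 h (log2 fold change -1.04 ± 0.19, adjusted p = 0.000325), and Pi16 54.9, 38.7 and 42.5 CPM at 6 h, against 73.4, 92.96 and 81.8 CPM at 3 h (log2 fold change -0.87 ± 0.19, adjusted p = 0.00183). The summed fibroblast markers were at 1448 to 2029 CPM at 6 h and 2470.2 to 2987 CPM at 3 h. Whether fewer fibroblasts took part in the lower collagen values was not tested.

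Ion channels and calcium-handling genes set the electrical activity and the beat of cardiomyocytes. Of 31 tested 13 were lower and 2 higher (1 without 3 h replicate 1), with a median of -0.39. Of 16 markers of ventricular cardiomyocytes 4 were lower and 0 higher, with a median of -0.25, and none had a positive fold change. The number of these markers lower was 0 without 3 h replicate 2, 1 without 6 h replicate 2 or 6 h replicate 3 and in the fit of these 6 libraries alone, and 2 with duplicates removed. Their part in the channel values was not tested. Kcnj3, the first channel given below, is also in the list of atrial cardiomyocyte markers. Of its 5 tested members 2 were lower, Kcnj3 among them, and 1 was higher. The number higher was 0 with DESeq2 and with library totals alone. It was also 0 without any 1 of the 3 h libraries and without 6 h replicate 2 or 6 h replicate 3. The 5 atrial markers summed to 155 to 212 CPM at 6 h and 169 to 184 CPM at 3 h, which overlapped. Kcnj3, a channel subunit that acetylcholine opens, had 11.1, 6.52 and 9.65 CPM at 6 h, against 28.4, 40.3 and 26.5 CPM at 3 h (log2 fold change -1.80 ± 0.20, adjusted p = 1.11e-06). Kcnj2, of the inward rectifier current, had 12.6, 7.93 and 16.1 CPM at 6 h, against 25.7, 44.8 and 34.1 CPM at 3 h (log2 fold change -1.51 ± 0.22, adjusted p = 3.23e-05). Kcnh2, which carries the rapid repolarizing current, had 69.4, 31.5 and 38.3 CPM at 6 h, against 92.1, 103 and 93.05 CPM at 3 h (log2 fold change -1.05 ± 0.20, adjusted p = 0.000541), and Kcnq1, of the slow current, had 27.3, 18.4 and 27.5 CPM at 6 h, against 43.1, 63.8 and 50.7 CPM at 3 h (log2 fold change -1.11 ± 0.16, adjusted p = 2.03e-05). The 4 potassium channels did not overlap between times. The T-type calcium channel Cacna1g had a fold change of -0.94 ± 0.25. The calcium pump Atp2a2 and its regulator Pln had -0.39 ± 0.11 and -0.66 ± 0.17. The call of Atp2a2 was lost on leaving out 3 h replicate 2 (adjusted p = 0.0997), 6 h replicate 2 (adjusted p = 0.0522) or 6 h replicate 3 (adjusted p = 0.0619) and with only the libraries of the compared groups (adjusted p = 0.138), and that of Pln on leaving out 3 h replicate 2 (adjusted p = 0.0557). Gja5, a gap junction gene whose counted reads were 71.4% of those with multiply mapped reads included, was higher, with 3.903, 7.499 and 8.03 CPM at 6 h, against 2.95, 1.33 and 2.28 CPM at 3 h (log2 fold change 1.55 ± 0.31, adjusted p = 0.000643).

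Contractile and energy genes had few calls that held without every library. Myh6, the main myosin heavy chain of the mouse heart, had 29968, 23862 and 24043 CPM at 6 h, against 27474, 38455 and 31349 CPM at 3 h (adjusted p = 0.165). Of 22 sarcomere and Z-disc genes 5 were lower and 1 higher, but the number lower was 0 without 3 h replicate 2, 1 without 6 h replicate 2 or 6 h replicate 3 and 9 without 3 h replicate 1. It was 3 with library totals alone, with duplicates removed or with the replicate number as a block, and 1 in the fit of these 6 libraries alone. Among 34 genes of fatty acid uptake and oxidation 6 were lower and 0 higher, with 1 lower on leaving out 3 h replicate 2 or 6 h replicate 3, 2 on leaving out 6 h replicate 2 or in the fit of these 6 libraries alone, and 10 on leaving out 3 h replicate 1. Lpl, which frees fatty acids from lipoproteins, averaged 4492 ± 165 CPM at 6 h and 5673 ± 1457 CPM at 3 h, and Pdk4, which turns the cell from glucose to fat, 4771 ± 1034 CPM at 6 h and 3542 ± 275 CPM at 3 h. Neither was called. Nuclear genes of oxidative phosphorylation had 0 of 36 members called in either direction by edgeR, DESeq2 and limma-voom, with 1 at an unadjusted p under 0.05, and 2 lower without 3 h replicate 1. Their fold changes lay between -0.30 and 0.21 on the log2 scale. The 13 protein genes of the mitochondrial genome had 0 called by the 3 tools, with 1 at an unadjusted p under 0.05. In them 1 was higher without 3 h replicate 3 or in the fit of these 6 libraries alone. With no filter on low counts 4 were higher and 1 lower.

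Of 30 genes of glycolysis and the hypoxia response 3 were higher and 7 lower, with 2 lower without 3 h replicate 2 and 4 without 6 h replicate 3. Pfkfb3, which raises glycolytic flux, had 40.2, 39.02 and 19.99 CPM at 6 h, against 120.3, 59.5 and 81.7 CPM at 3 h (log2 fold change -1.40 ± 0.33, adjusted p = 0.00284). Pfkp, a form of phosphofructokinase, rose by 0.60 ± 0.12.

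The unfolded protein response and the integrated stress response, which slow translation and raise chaperones, had 10 of 29 members lower and 3 higher, with a median of -0.30. Lower members numbered 4 without 3 h replicate 3 or 6 h replicate 3 and 6 without 3 h replicate 1 or with library totals alone. Herpud1, which helps to degrade proteins of the endoplasmic reticulum, had 198, 129 and 86.1 CPM at 6 h, against 327, 243 and 307 CPM at 3 h (log2 fold change -1.08 ± 0.22, adjusted p = 0.000908). Ppp1r15a, which ends the translation block, had 56.001, 81.8 and 67.3 CPM at 6 h, against 109, 167 and 192 CPM at 3 h (log2 fold change -1.19 ± 0.29, adjusted p = 0.00352), and the cochaperone Dnajc3 had 68.6, 66.1 and 63.6 CPM at 6 h, against 111, 113 and 137 CPM at 3 h (log2 fold change -0.87 ± 0.13, adjusted p = 3.28e-05). All 3 were lower at 6 h without overlap. The sensor Ern1 and the stress protein Sesn2 were higher, with 0.67 ± 0.17 and 0.90 ± 0.22. In the heat shock response 5 of 24 were lower and 2 higher, where all genes had 13.2% lower and 14.7% higher. Leaving out a library lowered the lower count to 3 (3 h replicate 2), 2 (3 h replicate 3), 1 (6 h replicate 1) and 0 (6 h replicate 3), and it was 3 with DESeq2. The higher count was 1 without 3 h replicate 1, 3 h replicate 3, 6 h replicate 2 or 6 h replicate 3. It was also 1 with duplicates removed and in the fit of these 6 libraries alone. Hspa1b, the inducible HSP70, had 58.4, 286 and 76.7 CPM at 6 h, against 819, 392 and 787 CPM at 3 h (log2 fold change -2.25 ± 0.71, adjusted p = 0.019999), with -3.30 without 6 h replicate 2, its highest 6 h library. The call of Hspa1b, whose reads are hard to tell from those of its near-identical copy Hspa1a, was lost on leaving out 3 h replicate 3 (adjusted p = 0.0513), 6 h replicate 1 (adjusted p = 0.0786) or 6 h replicate 3 (adjusted p = 0.09097).

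NRF2 is the factor that raises defences against oxidants, and 8 of 25 of its targets and glutathione genes were higher and 3 lower. The number lower was 1 without 3 h replicate 2, 6 h replicate 2 or 6 h replicate 3. Gsr, glutathione reductase, had 33.9, 46.1 and 38.99 CPM at 6 h, against 27.2, 21.003 and 22.4 CPM at 3 h (log2 fold change 0.75 ± 0.12, adjusted p = 4.43e-05). Gss, glutathione synthetase, had 24.01, 30.4 and 31.9 CPM at 6 h, against 16.9, 12.9 and 15.9 CPM at 3 h (log2 fold change 0.91 ± 0.14, adjusted p = 4.21e-05), and Tkt and G6pdx, of the pentose phosphate pathway, rose by 0.81 ± 0.11 and 1.07 ± 0.18. All 4 genes showed no overlap between times. Gpx3, the secreted glutathione peroxidase, was lower (log2 fold change -0.52 ± 0.12, adjusted p = 0.00181). Slc7a11, the cystine carrier of ferroptosis defence, was called higher (1.60 ± 0.43) and lost the call on leaving out 6 h replicate 2 (adjusted p = 0.116).

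Iron handling and ferroptosis, a form of cell death by oxidized lipids, had 3 of 24 tested members higher and 1 lower, where all genes had 14.7% higher and 13.2% lower. Without 1 library the higher count ran from 1 (without 3 h replicate 2) to 5 (without 3 h replicate 1), and the lower count was 3 without 6 h replicate 1 and 2 without 6 h replicate 2. Trp53, the p53 gene, had 28.8, 38.04 and 39.5 CPM at 6 h, against 20.9, 11.2 and 20.7 CPM at 3 h (log2 fold change 1.01 ± 0.17, adjusted p = 0.000119). Steap3, which reduces iron in endosomes, had 24.01, 16.3 and 15.3 CPM at 6 h, against 34.5, 34.3 and 29.1 CPM at 3 h and was lower (log2 fold change -0.82 ± 0.14, adjusted p = 0.000127). Ftl1, the ferritin light chain, rose by 0.51 ± 0.19, but the call was lost on leaving out 3 h replicate 2 (adjusted p = 0.211), 3 h replicate 3 (adjusted p = 0.108) or 6 h replicate 2 (adjusted p = 0.388) and with library totals alone (adjusted p = 0.06002), limma-voom (adjusted p = 0.05001), the replicate number as a block (adjusted p = 0.05597) or only the libraries of the compared groups (adjusted p = 0.125), and the groups overlapped. Fancd2 had 0.414, 0.6097 and 0 CPM at 6 h, against 1.75, 0.3698 and 0.3901 CPM at 3 h, which came from 17 reads over the 6 h libraries and 40 over the 3 h libraries. Its fold change of -1.30 ± 0.78 was not called (adjusted p = 0.223), and the groups overlapped. Of its 6 libraries 3 h replicate 1 was the highest. Of 20 Fanconi anaemia genes, the repair pathway of FANCD2, 3 were higher and 2 lower, near the shares of all genes. The lower count was 1 without 3 h replicate 1, 3 h replicate 2 or 6 h replicate 2, with library totals alone, with no filter and in the fit of these 6 libraries alone. Slx4 and Fance were higher (0.74 ± 0.19 and 0.64 ± 0.16), and the helicase Brip1 had 0.6505, 0.183 and 0.872 CPM at 6 h, against 2.11, 1.48 and 2.54 CPM at 3 h (log2 fold change -1.84 ± 0.40, adjusted p = 0.00152).

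Among targets of p53, 5 of 20 were higher and 5 lower. Without 3 h replicate 2 or 6 h replicate 2 the counts were 3 higher and 3 lower. The number lower was 2 without 3 h replicate 3 or 6 h replicate 3, and 3 without 6 h replicate 1, with library totals alone or in the fit of these 6 libraries alone. Aen, an exonuclease, and Zmat3, an RNA-binding protein, rose by 1.000 ± 0.12 and 0.72 ± 0.17. Fas, a death receptor, had 26.4, 20.2 and 18.2 CPM at 6 h, against 54.7, 42.2 and 46.6 CPM at 3 h (log2 fold change -1.15 ± 0.16, adjusted p = 1.47e-05). Of 26 genes that carry out cell death 4 were higher and 3 lower, near the share of all genes, with 1 higher without 3 h replicate 2, 2 without 6 h replicate 1 or in the fit of these 6 libraries alone, and 7 with duplicates removed. Bcl2l11, the killer protein BIM, had 8.69, 8.66 and 9.404 CPM at 6 h, against 27.6, 26.3 and 27.6 CPM at 3 h (log2 fold change -1.61 ± 0.18, adjusted p = 9.94e-07). Ripk1, a kinase of necroptosis, had 10.6, 12.5 and 9.903 CPM at 6 h, against 28.4, 35.3 and 24.7 CPM at 3 h (log2 fold change -1.42 ± 0.21, adjusted p = 3.11e-05), and Nlrp3, the inflammasome sensor, had 4.38, 8.54 and 7.72 CPM at 6 h, against 2.89, 1.41 and 3.06 CPM at 3 h (log2 fold change 1.47 ± 0.38, adjusted p = 0.00542). Bcl2l11 and Ripk1 were lower at 6 h and Nlrp3 higher, each without overlap.

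Of 25 coagulation and complement genes 5 were higher and 6 lower. F3, tissue factor, had 10.3, 10.5 and 11.96 CPM at 6 h, against 24.5, 24.9 and 23.5 CPM at 3 h (log2 fold change -1.15 ± 0.21, adjusted p = 0.000296). The complement receptors C3ar1 and C5ar1 rose by 1.52 ± 0.21 and 1.05 ± 0.25, while Cd55, which shields cells from complement, had -1.17 ± 0.24. Of 14 endothelial markers 2 were higher, Kdr (0.70 ± 0.16) and Egfl7 (0.80 ± 0.21), and 0 were lower (1 without 3 h replicate 1, 6 h replicate 1 or 6 h replicate 3). Of 11 markers of smooth muscle and pericytes 4 were higher and 3 lower. Cspg4 had 108, 79.9 and 100.1 CPM at 6 h, against 31.98, 28.7 and 38.6 CPM at 3 h (log2 fold change 1.54 ± 0.21, adjusted p = 8.78e-06), and Rgs5, another pericyte gene, 497, 384 and 539 CPM at 6 h, against 764, 843 and 715 CPM at 3 h (log2 fold change -0.71 ± 0.13, adjusted p = 0.000251). Both are pericyte markers, and they differed in direction without overlap in either.

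The list of metallothioneins and zinc transport had 7 of 16 members higher and 1 lower. The higher members were not all importers, and not all are named here. The importer Slc39a10 had 34.9, 53.7 and 53.2 CPM at 6 h, against 22.6, 12.7 and 15.3 CPM at 3 h (log2 fold change 1.48 ± 0.18, adjusted p = 3.14e-06), and the importers Slc39a6, Slc39a13 and Slc39a14 rose by 0.86 ± 0.19, 0.83 ± 0.13 and 0.66 ± 0.16. The exporter Slc30a1 had 24.5, 23.05 and 21.9 CPM at 6 h, against 41.4, 38.5 and 48.4 CPM at 3 h and was lower (log2 fold change -0.88 ± 0.13, adjusted p = 2.36e-05). The zinc-binding metallothionein Mt1 had 1351, 1394 and 872 CPM at 6 h, against 1173, 1207 and 847 CPM at 3 h (log2 fold change 0.16 ± 0.25, adjusted p = 0.663), and its groups overlapped. In prostaglandin metabolism 6 of 17 were higher and 0 lower (1 lower without 6 h replicate 3 or with duplicates removed). Among those higher were Ptgis, prostacyclin synthase (1.03 ± 0.23), and Ptgir, its receptor (1.68 ± 0.26). Of 34 proteasome subunits 1 was higher (2 with library totals alone) and 0 lower, and of 19 clock genes 0 were higher and 3 lower (2 higher and 6 lower with no filter).

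The change in this interval was tested against that in its neighbours by the difference between their total log2 changes. The intervals last 1.5 h, 3 h and 6 h, and the changes were not divided by length. A gene that changed at a constant rate could thus be called. The tests therefore do not show that a change was particular to these 3 hours. Against the 1.5 h before it (3 h minus 1.5 h), 557 genes were more positive from 3 h to 6 h (3.68%) and 631 more negative (4.17%), 7.85% in all, and these counts moved with single libraries. They were 316 and 421 when 3 h replicate 2 was left out, 177 and 249 when it was 3 h replicate 3, and 376 and 402 when it was 6 h replicate 3. The larger direction changed to 740 more positive and 560 more negative without 3 h replicate 1, and to 421 and 347 with library totals in place of scaling factors. Against the 6 h after it (12 h minus 6 h), 1423 were more positive (9.41%) and 1075 more negative (7.11%), 16.5% in all, with 608 and 379 without 6 h replicate 2. With library totals this split was 894 and 1122, with the median of all genes at -0.10 in place of 0.01. Each neighbour shares 3 libraries with this interval, so a library that stands apart enters both sides.

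In these tests Nmrk2 differed from both neighbours, by 4.01 ± 0.74, adjusted p = 0.00198 against the interval before and by 5.14 ± 0.60, adjusted p = 3.56e-06 against the interval after. It stood at 189.6 ± 122 CPM at 6 h and between 5.65 and 15.3 CPM in all groups before. Ppargc1a had means of 179 ± 38.3 CPM at 1.5 h, 331 ± 115 CPM at 3 h and 66.7 ± 27.6 CPM at 6 h (-3.19 ± 0.40, adjusted p = 5.61e-05). Rel stood at 53.1 ± 8.26, 79.9 ± 13.2 and 25.5 ± 3.33 CPM (-2.24 ± 0.24, adjusted p = 1.07e-05). Fosb, whose mean was highest at 1.5 h, differed by -5.48 ± 0.93, adjusted p = 0.000962. Atf3 stood at 576 ± 131 CPM at 1.5 h, 464 ± 118 CPM at 3 h, 95.6 ± 44.1 CPM at 6 h and 16.5 ± 10.6 CPM at 12 h, and its change from 3 h to 6 h was not called against the interval before (-1.97 ± 0.78, adjusted p = 0.124) or after (0.26 ± 0.81, adjusted p = 0.872).

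Several genes had their highest or lowest mean of the 8 groups at 6 h. Hbegf stood at 151 ± 28.5 CPM at 3 h, 544 ± 173 CPM at 6 h and 84.2 ± 47.1 CPM at 12 h, and differed from the interval after by 4.55 ± 0.51, adjusted p = 3.03e-06. Angpt1 was lowest at 6 h, at 6.41 ± 2.61 CPM, against 40.8 ± 4.66 CPM at 12 h (-4.39 ± 0.49, adjusted p = 3.03e-06), and Kcnj3 likewise (-2.998 ± 0.36, adjusted p = 5.73e-06). Of the 35 ribosome biogenesis genes 32 were more positive from 3 h to 6 h than from 6 h to 12 h and 9 more positive than from 1.5 h to 3 h. Those shares compare with 9.41% and 3.68% of all genes. Chil3 stood at 12.1 ± 6.65 CPM at 6 h and 26.2 ± 6.39 CPM at 12 h, and Arg1 at 5.38 ± 7.11 CPM and 20.5 ± 10.995 CPM.

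**Figure D5:**
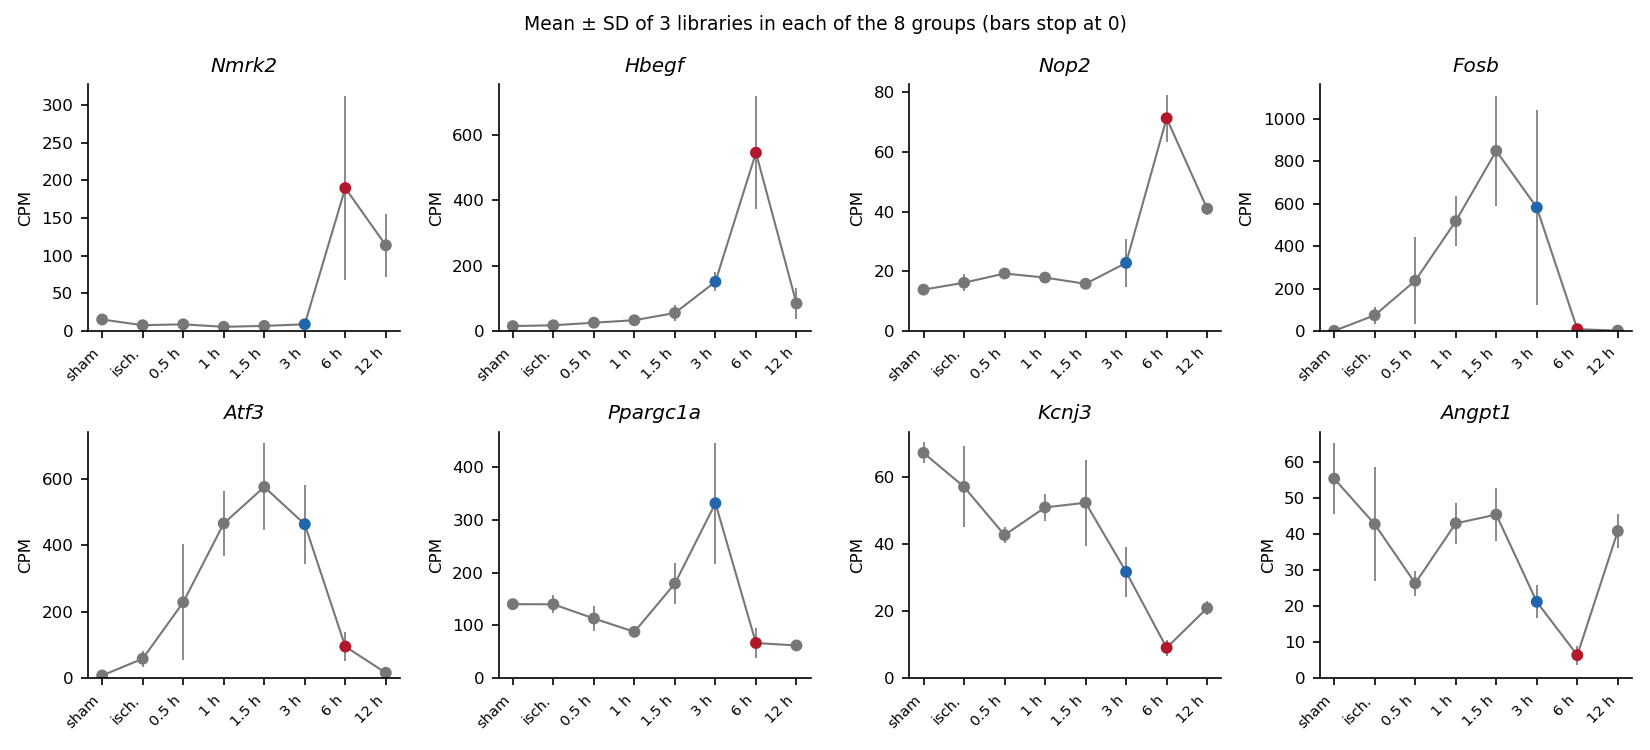
Mean CPM with SD of 3 libraries in sham, ischemia and 0.5 to 12 h of reperfusion for 8 genes, with the 3 h point in blue and the 6 h point in red. Nmrk2, Hbegf and Nop2 have their highest mean at 6 h, Fosb and Atf3 are highest at 1.5 h, Ppargc1a at 3 h, and Kcnj3 and Angpt1 have their lowest mean at 6 h.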

How the data were processed

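RNA sequencing of mouse heart was deposited by the authors as 1 table of read counts per gene and library, with columns for unique and multiply mapped reads, each with and without duplicates, per the file headers. Per the submitters' processing notes reads were placed on mm10, and libraries were made from total RNA with a TruSeq kit, per the labels' protocols; which aligner, counter and strand setting were used is not given in the sources used here. Unique counts with duplicates kept were used as deposited. All 24 libraries entered 1 quasi-likelihood fit in edgeR 4.0.16 (R 4.3.3) with 1 coefficient per group, TMM scaling and filterByExpr (10 reads, 15 in all), which kept 15128 of 46078 gene rows, and p-values were adjusted by Benjamini-Hochberg over them. Values after ± are SE for log2 fold changes and SD for CPM (n = 3). DESeq2 1.42.0 and limma 3.58.1 (voom) were alternatives, as were other scalings, filters, read types, a replicate block and leaving out each 3 h or 6 h library. The script was tested on simulated data. Symbols came from a gene name table for 45143 rows, positions from GENCODE (GRCm38) and promoters from RefSeq.

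The comparison, the gene lists and the alternatives were chosen with earlier results of these data known. Genes named were the 15 called genes that rose most and the 15 that fell most at 5 CPM or more without overlap, predicted gene models left out, and in each list up to 5 called rises and 5 called falls of at least 1 CPM and up to 3 uncalled genes of the highest level, with Atf3 and Fancd2 always given. Some genes that this rule selects are not reported here. Outside this rule, Jund, Klf4, Jun, Myc, Ccr1, Il6, Tnfrsf12a, Ankrd1, Nppb, Polr1a, Polr1b, Utp18, Ncl, Npm1, Nop56, Angpt2, Csf3r and the genes of the closing observations were chosen after their values were seen. Each 3 h or 6 h library held at least 15765679 counted reads.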

Additional observations from a re-analysis of the deposited data

How the results depend on the processing

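Of 166 named genes that were called, 158 were called in the same direction in all 16 alternatives, and 8 were not called in at least 1; leaving out 6 h replicate 2 ended the call of 5 and leaving out 3 h replicate 2 that of 4, the largest numbers for any alternative. No named gene reversed. The named genes were mostly chosen for large called changes, so these numbers do not stand for all called genes. Of 112 counts of list members called in a direction, 63 moved by over 1.5 times, or to or from 0, in at least 1 alternative. The number of genes called for 6 h against 3 h (4223) was 2765 with only the compared libraries in the fit and between 2830.0 and 4515 without 1 library. Of the 4223 genes, 2700 were also called with only the compared libraries, 2752 without 6 h replicate 2 and 2759 without 3 h replicate 2. For the difference from the interval before (1188) it was 768 with library totals alone, 649 with only the compared libraries, and, with 1 library left out, between 426 (3 h replicate 3) and 1395 (6 h replicate 1). For the difference from the interval after (2498) it was between 987 (6 h replicate 2 left out) and 2834 (3 h replicate 1 left out). Only libraries of 3 h and 6 h were left out 1 at a time, and none of 1.5 h or 12 h. The cause was not tested. DESeq2 gave adjusted p as NA for 587 genes in the second comparison, which are not counted as lost.

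The replicate numbers are not said to mark a shared animal or day. The deviations from the group means of same-numbered 6 h and 3 h libraries had correlations of -0.00898, -0.124 and -0.00126 across genes. With 3 libraries in each group these values cannot decide whether the libraries were paired. With the replicate number as a block 4080.0, 1086 and 2365 genes were called in the 3 comparisons, and 1 of the named genes lost the call.

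By library totals alone a count of 3 reads stood for 0.177 to 0.190 CPM. With the TMM factor it stands higher where the factor is below 1, as in 3 h replicate 2 (0.858). The fold changes of genes near this level at 3 h, such as Chil3, Ms4a4c and Csf2, rest on few reads there.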

Other observations

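Some of the most abundant genes that rose stand in none of the lists above and were picked after their values were seen. Neat1, the long noncoding RNA that builds nuclear paraspeckles, had 1032, 1817 and 1631 CPM at 6 h, against 318, 173 and 206 CPM at 3 h (log2 fold change 2.68 ± 0.25, adjusted p = 1.70e-07). Synpo2l, an actin-bundling protein of the Z-disc, had 716, 1834 and 1654 CPM at 6 h, against 104, 257 and 302 CPM at 3 h (log2 fold change 2.66 ± 0.34, adjusted p = 4.52e-06), and Lmcd1, a LIM protein of heart muscle, had 178, 542 and 419.5 CPM at 6 h, against 58.2, 76.8 and 86.3 CPM at 3 h (log2 fold change 2.36 ± 0.32, adjusted p = 1.15e-05). In all 3 genes the 6 h libraries lay above the 3 h libraries without overlap. Klhl41, a muscle protein that steadies sarcomere parts, rose by 1.67 ± 0.34, while Asb2 and Asb18, which recruit proteins to ubiquitin ligases, had fold changes of -1.68 ± 0.20 and -1.39 ± 0.20.

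Some other genes picked in the same way, for having risen, act at the actin cytoskeleton or in cell adhesion, for which no list was counted apart from leukocyte adhesion, with 5 of 16 higher and 2 lower (0 or 1 lower without any 1 library). Itga5, the fibronectin-binding integrin chain, had 682, 1165 and 897 CPM at 6 h, against 299, 278 and 351 CPM at 3 h (log2 fold change 1.56 ± 0.20, adjusted p = 5.83e-06), and Tiam2, which activates the GTPase RAC1, had 28.9, 64.99 and 41.4 CPM at 6 h, against 9.39, 6.06 and 12.7 CPM at 3 h (log2 fold change 2.26 ± 0.29, adjusted p = 5.83e-06). Both showed no overlap between times. Smaller rises were seen in Actb (beta-actin, 0.76 ± 0.17), Pfn1 (profilin, which feeds actin growth, 0.68 ± 0.15) and Flna (filamin A, which crosslinks actin, 0.79 ± 0.17). Vcl and Tln1, which tie integrins to actin, rose by 0.86 ± 0.22 and 0.82 ± 0.16, and Msn, a membrane linker of actin in leukocytes and endothelium, by 0.87 ± 0.14.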
